A study of Mus musculus with 7 samples.

Results

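The enzymes that write, copy and remove Polycomb and DNA methylation marks were followed through 10 genes. These were the PRC2 core genes *Ezh2*, *Ezh1*, *Eed* and *Suz12*, the maintenance methylation genes *Dnmt1* and *Uhrf1*, the de novo DNA methyltransferase genes *Dnmt3a* and *Dnmt3b*, and the Tet dioxygenase genes *Tet1* and *Tet3*. They were taken by gene symbol from the 38124 genes of the count table by a rule that names no measured value, although earlier results of these data were known when they were picked, and 10 of 10 were found and passed the filter on low counts that left 16522 genes to test. RNA-Seq was performed on High RFP cells, the most strongly RFP-positive cells sorted at E15.5 from the neocortex of heterozygous *Tis21*-CreERT2 mouse embryos that had been exposed to tamoxifen. In this knock-in allele CreERT2 takes the place of the first exon of *Tis21* (*Btg2*), so recombination occurs where the *Tis21* promoter is active, in neurogenic progenitors and their progeny, and every library of either group carries 1 such allele. The neocortex had been electroporated in utero at E13.5, 48 hr before collection, with a control construct, in which Cre removes a floxed membrane GFP and turns on nuclear RFP (3 libraries, numbered 1, 2 and 4), or with the conditional Sox9 expression construct, in which Cre turns on Sox9 and nuclear RFP together (4 libraries, numbered 1 to 4). The methods describe pools of cortices from several embryos and mothers per sort.

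PRC2 is the Polycomb complex that methylates histone H3 at lysine K27, a mark of repressed developmental genes. Ezh2 and Ezh1 are its alternative catalytic subunits, Ezh2 being typical of dividing and Ezh1 of non-dividing cells, while Eed binds the mark and Suz12 holds the complex together. DNA methylation at CpG sites is set by Dnmt3a and Dnmt3b and copied at the replication fork by Dnmt1, which Uhrf1 brings to hemimethylated DNA, and Tet enzymes oxidise methylcytosine on the way to its removal. In the developing neocortex Ezh2 restrains the passage from progenitor to neuron, and Dnmt1 is abundant in dividing progenitors. On this textbook basis 5 genes are called replication-linked here (*Ezh2*, *Eed*, *Suz12*, *Dnmt1* and *Uhrf1*), as genes whose mRNAs follow proliferation and E2F, the transcription factor family of the G1/S transition. The other 5 (*Ezh1*, *Dnmt3a*, *Dnmt3b*, *Tet1* and *Tet3*) are the members without that link.

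The promoters of the members were read for E2F-type letters, because the grouping rests on that factor family. The strings searched were TTTCCCGC, TTTGGCGC, TTTCGCGC and TTTGCCGC on both strands, in RefSeq windows from 250 bases before to 50 bases after each start (assembly GRCm38.p6), with no overlap between matches in the members' windows. All 10 members had at least 1 window (15 in all), and 4 of the 15 windows held a match (26.7%, against 2.26% of 32851 windows). *Dnmt1* and *Uhrf1* also had windows without a match, so a start named below is that of the window with the match. A match was found in 4 of 10 members (40.0%), namely *Ezh2*, *Suz12*, *Dnmt1* and *Uhrf1*, against 704 of 27025 genes (2.6%) and 10 of 26 replication genes (38.5%). The 4 genes with a match are all of the replication-linked group, and no match lay in the windows of *Eed*, *Ezh1*, *Dnmt3a*, *Dnmt3b*, *Tet1* or *Tet3*. That group was drawn up as genes that follow E2F, so this split cannot test the grouping. The stretches with a match are printed in the direction of the gene, with the matching letters in capitals:
*Ezh2*, chr6:47595000-47595047, minus strand, match beginning 3 bases after the start: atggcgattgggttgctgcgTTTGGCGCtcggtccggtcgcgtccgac
*Suz12*, chr11:79992867-79992914, plus strand, match beginning 219 bases before the start: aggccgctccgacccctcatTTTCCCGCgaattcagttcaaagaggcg
*Dnmt1*, chr9:20952574-20952610, minus strand, match beginning 33 bases after the start: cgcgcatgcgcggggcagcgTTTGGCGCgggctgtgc
*Dnmt1*, chr9:20952815-20952862, minus strand, match beginning 219 bases before the start and reading TTTCGCGC on the opposite strand: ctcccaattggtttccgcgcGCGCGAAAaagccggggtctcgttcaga
*Uhrf1*, chr17:56304108-56304155, plus strand, match beginning 185 bases before a start: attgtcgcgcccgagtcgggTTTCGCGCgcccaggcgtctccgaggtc
*Ezh2* and *Dnmt1* share the string TTTGGCGC just after a start, and *Dnmt1* and *Uhrf1* share TTTCGCGC before a start. Binding was not measured, and a match describes letters in a window only.

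The libraries held 4429704 to 12907778 counts, with 10465562 to 12907778 in the controls and 4429704 to 10520214 in the libraries labelled Sox9. *Sox9* mRNA itself, as counted on the *Sox9* gene, was 63.9 ± 27.5 CPM (counts relative to the size of the library after scaling by TMM, edgeR's trimmed mean of M-values; SD, n = 3) in the controls and 40.0 ± 8.33 CPM (SD, n = 4) in the libraries labelled Sox9 (edgeR log2 fold change −0.67, adjusted p = 0.0493). The means thus differed in the direction opposite to what the labels name, but the difference was not called at the threshold given below. Control 1 (34.6 CPM) lay below Sox9 1, Sox9 2 and Sox9 4 (50.8, 41.1 and 37.1 CPM), so the groups overlapped. Sox9 3 (31.0 CPM) lay below all controls. Whether transcripts of the construct were counted on that gene is not given in the sources used here, so the labels were not checked by it, an exchange of labels was not tested, and the groups are named by label. *Col4a1*, a basement membrane collagen chain chosen after its values were seen because the study follows it in these libraries, was higher in the libraries labelled Sox9 (log2 fold change 1.64, SE 0.27, edgeR adjusted p = 0.000918). Of all genes tested 11.3% were called higher, so this value is not read as a check of the labels. Neuron markers made up 13519 to 16715 CPM in the controls and 12216 to 14395 CPM in the libraries labelled Sox9, with no one of the 10 markers called. Radial glia markers summed to 615 to 1164 CPM in the controls and 299 to 441 CPM in the libraries labelled Sox9 (5 of 9 called lower), and intermediate progenitor markers to 213 to 246 CPM and 128 to 159 CPM (2 of 6 called lower). Oligodendrocyte precursor markers summed to 0.610 to 1.39 CPM in the controls and 9.50 to 22.8 CPM in the libraries labelled Sox9, and 4 of 4 tested were called higher. All 4 had an average log2 CPM under 2, where 22.7% of genes were called higher, and genes this low can pass the filter through the higher group alone, so no more is read from that count. Of the astrocyte markers 1 was called lower and 2 higher, and endothelial, mural and meningeal, microglial, erythroid and choroid plexus markers had 1 or 2 called higher per list. Their sums did not overlap between controls and libraries labelled Sox9 for endothelial (3.15 to 11.1 and 13.6 to 36.8 CPM), mural and meningeal (8.51 to 10.8 and 14.6 to 28.2 CPM) and choroid plexus markers (1.05 to 1.56 and 9.07 to 14.0 CPM), and overlapped for microglial (8.32 to 27.4 and 11.7 to 48.9 CPM) and erythroid markers (2.10 to 24.5 and 13.3 to 93.2 CPM). No marker of these lists was at 0 in every library. Over all genes tested, 3.43% were called lower and 11.3% higher, and 22.9% lay above every control in every library labelled Sox9. Genes with an average log2 CPM under 2 had a median log2 fold change of 1.17. No cell type is therefore read from the low sums of the endothelial, mural and meningeal, and choroid plexus markers. In sorted bulk RNA a smaller share of progenitors and less mRNA per progenitor cannot be told apart, and the part of these shifts in the results below was not tested.

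Of the 10 members, *Uhrf1* and *Ezh2* fell in the libraries labelled Sox9, no member rose, and the other 8 were not called (edgeR's quasi-likelihood test, Benjamini-Hochberg adjustment over 16522 genes, threshold 0.01). The 2 of 10 called lower stand beside 3.43% of all genes tested, and beside 6.22% of the 6333 genes with an average log2 CPM of 4 to 8, the range that holds 8 of the 10 members. For calls higher the background was 11.3% of all genes and 1.07% of genes in that range, and no member was called higher by DESeq2 either or had an unadjusted p under 0.05 in that direction. The median log2 fold change was −0.39 over the members, −0.50 over the 5 replication-linked members and −0.16 over the other 5. It was −0.0031 over all genes and −0.21 over the genes with an average log2 CPM of 4 to 8. In other settings DESeq2 called 4 of 10 members lower (7.42% of its genes), a fit without the filter 4 (4.47%), DESeq2's size factors 2 (3.84%), cyclic loess normalization 1 (1.72%) and library totals 1 (1.36%). No member was called higher in these fits, against 11%, 8.19%, 11.3%, 2.2% and 14.8% of genes.

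**Figure D1:**
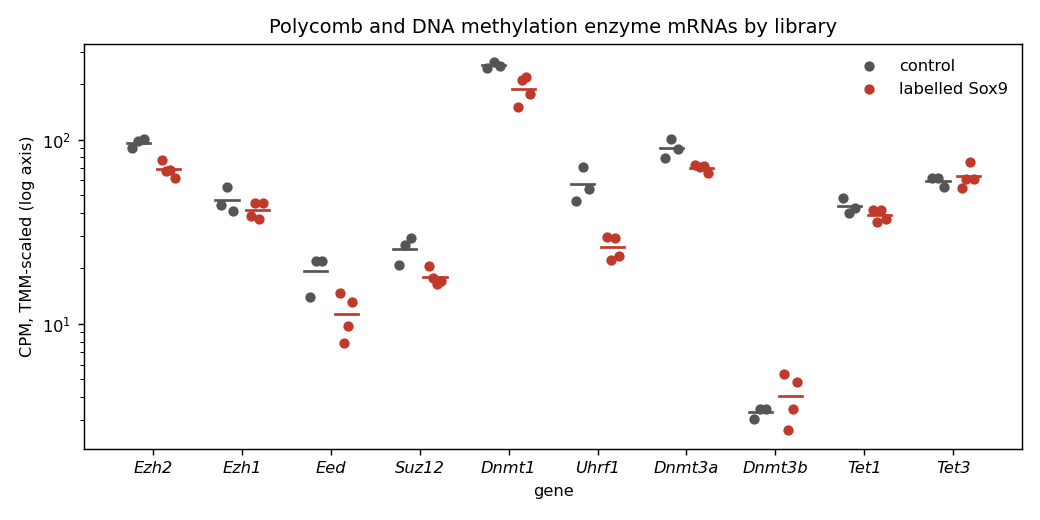
CPM of the 10 genes (y axis, log scale, TMM-scaled) in the 3 control libraries (grey) and the 4 libraries labelled Sox9 (red), 1 point per library and a bar at the group mean. The *Uhrf1* points of the libraries labelled Sox9 lie between 22.3 and 29.5 CPM, below the lowest control at 46.5 CPM, while the points of *Ezh1*, *Tet1* and *Tet3* overlap between the groups.

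In 5 of 10 members, *Ezh2*, *Suz12*, *Dnmt1*, *Uhrf1* and *Dnmt3a*, all 4 libraries labelled Sox9 lay below all 3 controls, against 16.4% of all genes and 30.1% of genes with an average log2 CPM of 4 to 8. Replication-linked genes made up 4 of these 5. No member lay above the controls in all 4 libraries, where 22.9% of all genes did (39.3% in either direction). That share covers genes of every level. At an average log2 CPM of 4 to 8, the range of 8 of the 10 members, 1.07% of genes were called higher and the median log2 fold change was −0.21. Nothing particular to the members is therefore read from this absence.

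*Uhrf1* (ENSMUSG00000001228, chr17:56303321-56323486, plus strand, mm10), the factor that reads hemimethylated CpG sites behind the fork, showed the largest fall of the members. It was at 46.5, 71.3 and 53.8 CPM in controls 1, 2 and 4 and at 29.5, 22.3, 29.4 and 23.3 CPM in the libraries labelled Sox9 1 to 4. The groups did not overlap, and control 2 was the highest of the 7 libraries. The means were 57.2 ± 12.7 CPM (SD, n = 3) and 26.1 ± 3.88 CPM (SD, n = 4), a log2 fold change of −1.12 (SE 0.17, edgeR adjusted p = 0.000631). This call was kept in all 16 alternative settings, with log2 fold changes of −1.27 to −0.89.

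*Dnmt1* (ENSMUSG00000004099, chr9:20907209-20959888, minus strand), the maintenance methyltransferase itself, was at 245, 262 and 252 CPM in the controls and at 150, 209, 219 and 176 CPM in the libraries labelled Sox9. The controls were close together, the libraries labelled Sox9 were spread more widely and all lay below them. The means were 253 ± 8.48 CPM (SD, n = 3) and 189 ± 31.6 CPM (SD, n = 4), with a log2 fold change of −0.42 (SE 0.13, edgeR adjusted p = 0.0245), which did not pass the threshold. DESeq2 called it lower (adjusted p = 0.00826).

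*Ezh2* (ENSMUSG00000029687, chr6:47530139-47595341, minus strand), the catalytic subunit of PRC2 in dividing cells, was at 89.8, 98.4 and 100.1 CPM in the controls and at 77.6, 67.6, 68.0 and 62.1 CPM in the libraries labelled Sox9. No library labelled Sox9 reached the lowest control. The means were 96.1 ± 5.49 CPM (SD, n = 3) and 68.8 ± 6.45 CPM (SD, n = 4), 0.717 of the control level. The log2 fold change was −0.48 (SE 0.12, edgeR adjusted p = 0.00940), close to the threshold, and the call was kept in 3 of 16 alternative settings and in 0 of the 7 fits that left out a library. On the opposite strand within *Ezh2* lies *Gm26625*, a lincRNA that shares 174 exonic bases with it, had 11 to 62 counts per library (up to 10.2% of the count of *Ezh2*) and was called higher (log2 fold change 1.65, edgeR adjusted p = 0.00626). Use of strand in the counting is not given in the sources used here, so reads of the shared bases cannot be told apart.

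The 2 partners without which PRC2 does not methylate were below their control means in all 4 libraries labelled Sox9, but neither was called. *Suz12* (ENSMUSG00000017548, chr11:79993106-80034123, plus strand), the scaffold subunit, was at 20.8, 26.8 and 29.1 CPM in the controls and at 20.6, 17.7, 16.4 and 17.2 CPM in the libraries labelled Sox9. The groups were separated by the small step from 20.8 to 20.6 CPM, and the log2 fold change was −0.50 (SE 0.18, edgeR adjusted p = 0.0436). *Gm26563*, which overlaps *Suz12* on the opposite strand, had up to 53.7% of its count and a log2 fold change of 0.079 (edgeR adjusted p = 0.882).

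*Eed* (ENSMUSG00000030619, chr7:89954654-89980983, minus strand), the subunit that binds methylated H3K27, was at 14.1, 21.9 and 22.1 CPM in the controls and at 14.7, 7.84, 9.73 and 13.2 CPM in the libraries labelled Sox9. Control 1 lay below the highest library labelled Sox9, so the groups overlapped. The log2 fold change was −0.77 (SE 0.25, edgeR adjusted p = 0.0279), and DESeq2 called it lower (adjusted p = 0.00616). *Eed* rests on 956 counts in all, the fewest of the PRC2 core, and *E230029C05Rik*, which shares 261 exonic bases with it on the opposite strand, had up to 15.7% of its count in a library.

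*Ezh1* (ENSMUSG00000006920, chr11:101191115-101226463, minus strand), the catalytic subunit of non-dividing cells, was at 44.1, 55.4 and 41.1 CPM in the controls and at 38.3, 45.1, 36.9 and 45.1 CPM in the libraries labelled Sox9. The groups overlapped, and the log2 fold change was −0.18 (SE 0.15, edgeR adjusted p = 0.382). Its sign depended on the scaling, with 0.032 after cyclic loess normalization and 0.048 when libraries were scaled by their totals, and it was −0.038 without control 2.

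Among the de novo methyltransferases, *Dnmt3a* (ENSMUSG00000020661, chr12:3806007-3914443, plus strand), the main de novo enzyme of the postnatal brain, was at 79.6, 101.1 and 89.1 CPM in the controls and at 72.7, 71.1, 71.7 and 66.1 CPM in the libraries labelled Sox9. The latter lay within a narrow band below all controls. The means were 89.9 ± 10.7 CPM (SD, n = 3) and 70.4 ± 2.94 CPM (SD, n = 4), with a log2 fold change of −0.35 (SE 0.12, edgeR adjusted p = 0.0400), which was not called in any of the 16 alternative settings.

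*Dnmt3b* (ENSMUSG00000027478, chr2:153649450-153687730, plus strand), the de novo enzyme of early embryos, was the least abundant member with 227 counts in all. It was at 3.06, 3.48 and 3.46 CPM in the controls and at 5.36, 2.65, 3.47 and 4.82 CPM in the libraries labelled Sox9, which lay on either side of the controls. The log2 fold change was 0.25 (SE 0.33, edgeR adjusted p = 0.591), −0.29 after cyclic loess normalization, and no difference was detectable at this depth.

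The Tet enzymes oxidise methylcytosine, and neither was called. *Tet1* (ENSMUSG00000047146, chr10:62804570-62908996, minus strand) was at 48.3, 39.8 and 42.4 CPM in the controls and at 41.6, 35.8, 41.5 and 37.1 CPM in the libraries labelled Sox9, with a log2 fold change of −0.16 (SE 0.14, edgeR adjusted p = 0.424) that was 0.048 after cyclic loess normalization and 0.077 by library totals. *Tet3* (ENSMUSG00000034832, chr6:83362373-83459084, minus strand) was at 61.6, 61.9 and 55.1 CPM in the controls and at 54.7, 61.1, 75.7 and 61.2 CPM in the libraries labelled Sox9, with a log2 fold change of 0.086 (SE 0.14, edgeR adjusted p = 0.670) that was 0.30 after cyclic loess normalization, 0.32 by library totals and −0.014 with the replicate block by titles. In both genes the groups overlapped, and for *Tet3* a single library, Sox9 3, stood above all controls.

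**Figure D2:**
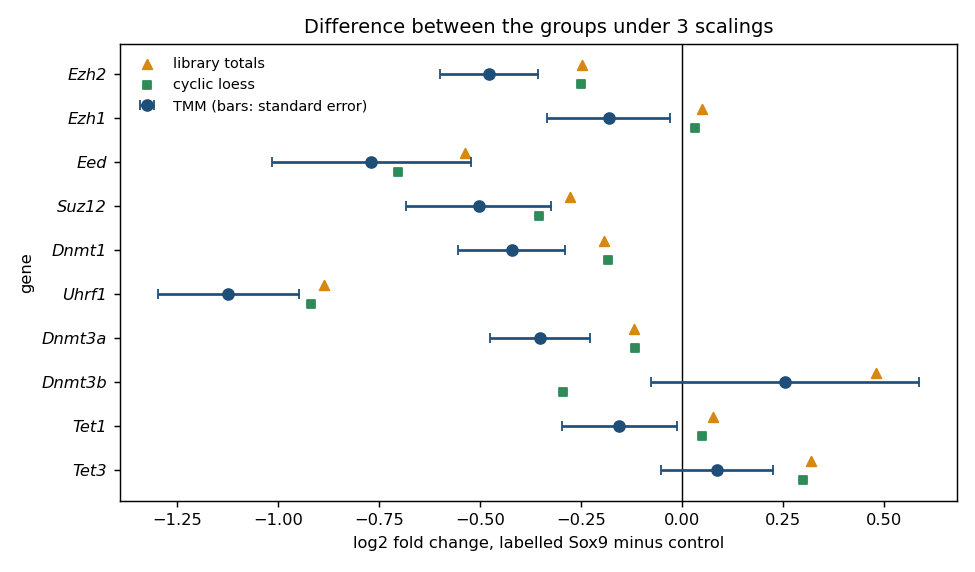
Log2 fold change of each gene, libraries labelled Sox9 minus control (x axis), with TMM scaling (circles, bars are 1 standard error), cyclic loess normalization (squares) and scaling by library totals (triangles). The values of *Uhrf1* lie between −1.12 and −0.89 in all 3, whereas those of *Ezh1* and *Tet1* change sign between TMM and both other scalings and that of *Dnmt3b* changes sign under cyclic loess.

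The scaling mattered for the size of the falls. With library totals in place of TMM, the median of all genes moved by 0.23 on the log2 scale. By edgeR, the log2 fold changes became −0.25 for *Ezh2* (adjusted p = 0.156), −0.19 for *Dnmt1* (adjusted p = 0.278) and −0.12 for *Dnmt3a* (adjusted p = 0.522). They became −0.28 for *Suz12* (adjusted p = 0.314), −0.54 for *Eed* (adjusted p = 0.148) and −0.89 for *Uhrf1* (adjusted p = 0.00289). The deposited FPKM, scaled by library totals, separated the groups of 2 members. *Uhrf1* lay lower in all 4 libraries labelled Sox9 (2.58 ± 0.539 FPKM, n = 3, and 1.39 ± 0.247 FPKM, n = 4; 4.6% of genes lay lower in this way). *Ezh2* was at 1.24 to 1.44 FPKM in the controls and 1.03 to 1.30 FPKM in the libraries labelled Sox9, which overlapped. *Tet3* lay higher in all 4 libraries labelled Sox9 (0.560 ± 0.0212 FPKM, n = 3, and 0.698 ± 0.108 FPKM, n = 4), as did 28.6% of genes.

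To separate the members that moved with DNA replication from those that did not, 32 genes of the replication machinery (MCM helicase, GINS, polymerases, clamp loader, nucleotide synthesis, licensing and chromatin assembly) were used as a yardstick. Of these, 21 of 32 were called lower and 0 higher (3.43% and 11.3% of all genes), with a median log2 fold change of −0.96. *Rrm2*, the small subunit of ribonucleotide reductase, fell from 387 ± 109 CPM (SD, n = 3) to 78.7 ± 11.9 CPM (SD, n = 4), with a log2 fold change of −2.29 (SE 0.17, edgeR adjusted p = 7.64e-06). The helicase subunits *Mcm3* and *Mcm2* fell with log2 fold changes of −2.79 and −1.41, and the licensing factor *Cdc6* with −2.45. The polymerase genes *Pola1* (0.011), *Pole* (0.018), *Pola2* (−0.032) and *Pold1* (−0.094) were not called. The yardstick thus ranged from −2.79 to 0.018, and all members but *Tet3* and *Dnmt3b* lay within that range. Its mean, used below, does not stand for every replication gene.

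When the libraries were scaled to the mean of these replication genes instead of TMM, 7 of 10 members were called higher, 0 lower and 3 not at all (edgeR, threshold 0.01). On that scale 76.5% of all genes were called higher (0.393% lower), and 85.3% of genes with an average log2 CPM of 4 to 8 (0.647% lower), so nothing particular to the members is read from the count, and the position of each member between the replication genes, at 0, and the median of all genes, at 1.05, is given instead. *Uhrf1* was the member at the replication genes, with a log2 fold change of −0.019 (SE 0.21, edgeR adjusted p = 0.931) relative to them. Its log2 CPM minus the mean of the replication genes was 0.60, 0.74 and 0.58 in the controls and 0.80, 0.29, 0.75 and 0.56 in the libraries labelled Sox9, and these ranges overlapped fully. The relative log2 fold change was 0.031 without control 2 and 0.079 without Sox9 2.

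The other replication-linked members lay between the yardstick and the median of all genes. *Eed* (0.34, SE 0.28, edgeR adjusted p = 0.256) and *Suz12* (0.58, SE 0.24, edgeR adjusted p = 0.0257) were not called relative to the replication genes, and the estimate of *Eed* ranged from 0.18 without Sox9 1 to 0.51 without Sox9 2 (0.18 with the replicate block by descriptions, 0.21 with the median of the replication genes). *Ezh2* (0.60, SE 0.18, edgeR adjusted p = 0.00429) and *Dnmt1* (0.65, SE 0.18, edgeR adjusted p = 0.00173) were called higher than them. For *Dnmt1* the log2 CPM minus the mean of the replication genes was 2.99, 2.61 and 2.81 in the controls and 3.14, 3.51, 3.64 and 3.47 in the libraries labelled Sox9, without overlap. All other members except *Eed* and *Uhrf1* were also without overlap on this scale, *Suz12* included. On it 85.3% of genes with an average log2 CPM of 4 to 8 were called higher, so nothing particular to *Dnmt1* is read from this. These calls depended on the setting. *Dnmt1* was no longer called without control 4 (adjusted p = 0.0103) or with the replicate block by titles (adjusted p = 0.0110), and *Ezh2* without control 2, control 4 or Sox9 1 or with the median of the replication genes as the yardstick (adjusted p = 0.0101; all by edgeR).

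The members without a link to replication were all called higher than the replication genes, as were 76.5% of all genes and 85.3% at an average log2 CPM of 4 to 8. Nothing is therefore read from that count. *Dnmt3a* was at 0.74 (SE 0.18, edgeR adjusted p = 0.000653), *Tet1* at 0.90 (SE 0.22, edgeR adjusted p = 0.000692) and *Ezh1* at 0.91 (SE 0.21, edgeR adjusted p = 0.000385). *Tet3* was at 1.16 (SE 0.20, edgeR adjusted p = 3.65e-05) and *Dnmt3b* at 1.30 (SE 0.39, edgeR adjusted p = 0.00410). The median of all genes on this scale, 1.05, depended on the level of the genes, with 0.86 for an average log2 CPM of 4 to 8 and 2.08 for one under 2. Beside genes of their own level, the estimates of *Ezh1*, *Tet1* and *Tet3* lay above the median and that of *Dnmt3a* below it, and that of *Dnmt3b*, with an average log2 CPM of 1.96, lay below the median of genes under 2. The call of *Dnmt3b* was lost without control 2, control 4, Sox9 1 or Sox9 4, and the number of members called higher ranged from 4 without control 4 to 7.

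**Figure D3:**
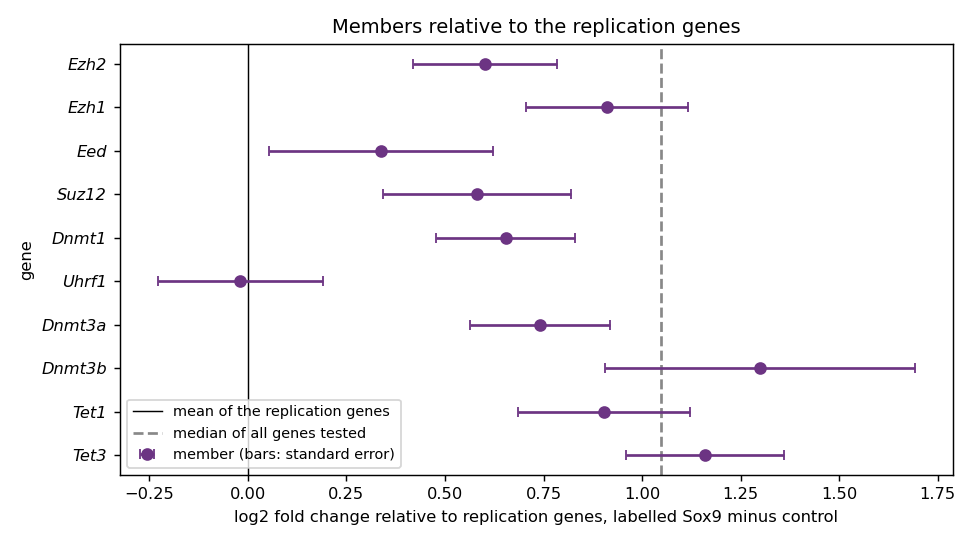
Log2 fold change of each gene relative to the 32 replication genes, libraries labelled Sox9 minus control (x axis); points are estimates and bars 1 standard error. The solid line at 0 is the mean of the replication genes and the dashed line at 1.05 the median of all genes tested; *Uhrf1* sits at the solid line at −0.019 (0.031 without control 2 and 0.079 without Sox9 2), and *Tet3* at 1.16 and *Dnmt3b* at 1.30 lie right of the dashed line. For genes with an average log2 CPM under 2, such as *Dnmt3b*, the median was 2.08.

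Pairs of members were compared as ratios within a library, which do not depend on scaling. *Ezh1* had 0.491, 0.564 and 0.411 counts per count of its paralog *Ezh2* in the controls and 0.494, 0.667, 0.543 and 0.727 in the libraries labelled Sox9. Their log2 ratio was 0.31 higher on average in the latter (0.19 without control 4), the groups overlapped, and the exact permutation test over 35 splits gave p = 0.229 (0.305 adjusted over 4 ratios; smallest possible p 0.0286, two-sided). *Dnmt3a* to *Dnmt1* differed by 0.092 (exact p = 0.714), and by −0.028 without Sox9 1. *Dnmt3a* to *Dnmt3b* differed by −0.59 (exact p = 0.143, 0.286 adjusted), with 25.6, 28.7 and 25.4 counts of *Dnmt3a* per count of *Dnmt3b* in the controls and 13.4, 26.4, 20.4 and 13.4 in the libraries labelled Sox9. *Tet3* to *Tet1* differed by 0.23 (exact p = 0.143, 0.286 adjusted). In none of the 4 ratios were the groups separate.

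The ratio of *Uhrf1* to *Dnmt1*, the 2 partners of maintenance methylation, was added after the values had been seen. There were 19.0, 27.2 and 21.4 counts of *Uhrf1* per 100 counts of *Dnmt1* in the controls and 19.7, 10.7, 13.5 and 13.3 in the libraries labelled Sox9. Sox9 1 lay within the controls and the other 3 lay below them. The log2 ratio was 0.68 lower on average in the libraries labelled Sox9 (difference −0.68, exact permutation p = 0.0857, 0.238 adjusted over 5 ratios). With 35 splits the smallest possible p was 0.0286, above the threshold used for calls. No ratio could therefore have passed that threshold, and no conclusion is drawn from the test.

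**Figure D4:**
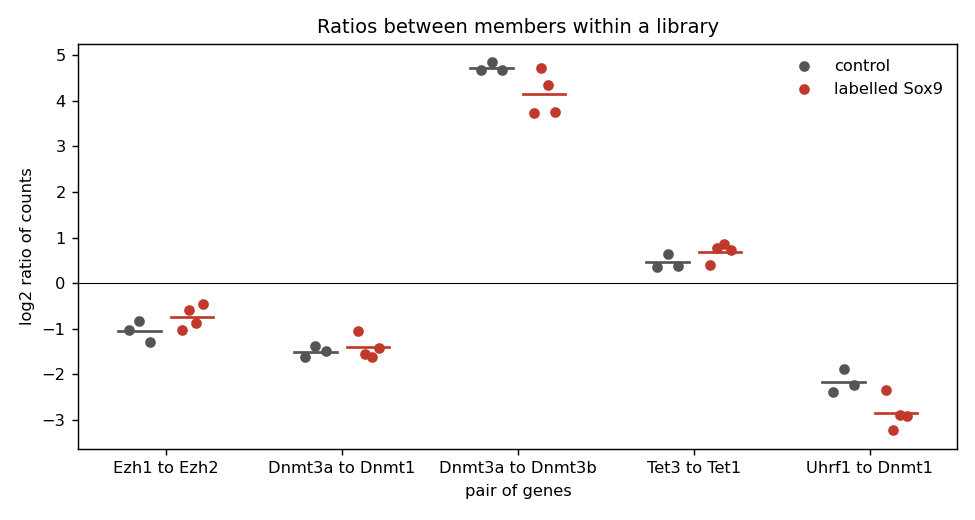
Log2 ratio of counts of 5 pairs of genes within each library (y axis), for the 3 control libraries (grey) and the 4 libraries labelled Sox9 (red), with a bar at each group mean. The groups overlap in every pair, and the mean of *Uhrf1* to *Dnmt1* lies at −2.17 in the controls and −2.84 in the libraries labelled Sox9.

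Per kilobase of exon, *Dnmt1* was the most abundant member in either group, at 34.3 ± 1.15 CPM per kb in the controls (SD, n = 3) and 25.6 ± 4.29 in the libraries labelled Sox9 (SD, n = 4). In the controls *Ezh2* (14.4 ± 0.822 CPM per kb) and *Uhrf1* (13.4 ± 2.99) followed, with overlapping ranges. Below them came *Ezh1* (6.30 ± 1.02), *Dnmt3a* (5.40 ± 0.646), *Suz12* (5.18 ± 0.863), *Eed* (5.05 ± 1.20) and *Tet3* (3.57 ± 0.229), each overlapping its neighbour, then *Tet1* (2.81 ± 0.281) and *Dnmt3b* (0.652 ± 0.0462). In the libraries labelled Sox9 *Ezh2* (10.3 ± 0.966 CPM per kb) stood clear of *Uhrf1* (6.13 ± 0.910), which overlapped with *Ezh1* (5.56 ± 0.585). *Dnmt3a* (4.23 ± 0.177), *Tet3* (3.78 ± 0.532), *Suz12* (3.64 ± 0.369), *Eed* (2.97 ± 0.821) and *Tet1* (2.52 ± 0.193) followed with each range overlapping the next, and *Dnmt3b* (0.798 ± 0.243) was again last. This order depends on the length used, and whether reads in introns were counted is not given in the sources used here. The length behind the deposited FPKM was 90.5% or more of the whole gene span, 4.73 to 9.76 times the exonic length of these genes, and on that scale *Uhrf1* (2.58 ± 0.539 FPKM, n = 3) stood clear above *Ezh2* (1.34 ± 0.0990 FPKM, n = 3) in the controls.

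The other genes of these pathways were taken from lists of 100 genes, of which 72 were tested, beside the replication genes. Their calls stand beside 3.43% of all genes called lower and 11.3% higher (6.22% and 1.07% at an average log2 CPM of 4 to 8), and their medians beside −0.21 for genes at that level. Among 14 further DNA methylation factors, 3 were called lower and 1 higher, with a median log2 fold change of −0.20 (−0.13 after cyclic loess). The genes that fell were *Lig1*, the ligase that joins Okazaki fragments and serves to bring Uhrf1 to the fork (−1.65, SE 0.18, edgeR adjusted p = 7.70e-05), and *Cdca7* (−1.73, SE 0.21, edgeR adjusted p = 0.000129) and *Hells* (−1.45, SE 0.23, edgeR adjusted p = 0.000711), which together form a chromatin remodeller needed for maintenance methylation. *Cdca7* was at 85.4 ± 25.0 CPM (SD, n = 3) in the controls and 25.3 ± 5.79 CPM (SD, n = 4) in the libraries labelled Sox9. The 3 were also called lower after cyclic loess normalization. *Dnmt3l*, the catalytically inactive partner of the de novo enzymes, was called higher from 2, 0 and 3 counts in the controls to 20, 11, 11 and 23 (edgeR adjusted p = 0.00428), a call that cyclic loess did not keep (adjusted p = 0.161). *Dnmt3l* overlaps *Aire* on the opposite strand (67 shared exonic bases), which was itself called higher (log2 fold change 2.08, SE 0.44, edgeR adjusted p = 0.00357), and reads of the shared bases cannot be told apart. Both have an average log2 CPM under 2, where 22.7% of genes were called higher, so nothing is read from the call.

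The accessory subunits of PRC2 showed no call in either direction (0 of 9, median log2 fold change 0.19, but −0.0018 after cyclic loess). The smallest p belonged to *Rbbp7*, a histone-binding subunit (−0.34, SE 0.13, edgeR adjusted p = 0.0584), followed by *Mtf2* (−0.23, adjusted p = 0.165), *Lcor* (0.23, adjusted p = 0.205) and *Phf19* (0.49, adjusted p = 0.284). Of the PRC1 subunits, the complex that binds methylated H3K27 and ubiquitinates histone H2A, 22 of 23 were tested, 0 were called lower and 1 higher (median −0.23; −0.11 after cyclic loess). The one called was *Cbx6*, a chromodomain subunit, which rose from 13.8 ± 2.98 CPM (SD, n = 3) to 25.6 ± 3.48 CPM (SD, n = 4), with a log2 fold change of 0.87 (SE 0.20, edgeR adjusted p = 0.00565) and 1.02 after cyclic loess normalization. Without control 2 no gene of these lists was called higher, *Cbx6* included. The ubiquitin ligase *Rnf2* was at 270 ± 0.608 CPM and 215 ± 9.0 CPM, with a log2 fold change of −0.33 (edgeR adjusted p = 0.0229), which DESeq2 called lower (adjusted p = 0.00247) and cyclic loess put at −0.075 (adjusted p = 0.645). *Cbx7* (1.14, adjusted p = 0.0509) and *Phc3* (−0.42, adjusted p = 0.0600) did not pass.

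Of the enzymes that undo Polycomb marks, the H3K27 demethylases *Kdm6a* and *Kdm6b*, the H2A deubiquitinase *Bap1* and its cofactors, 0 of 5 were called in either direction (median −0.19, but 0.019 after cyclic loess). *Asxl1* was at −0.50 (adjusted p = 0.0889), *Bap1* at −0.19 (adjusted p = 0.163), *Kdm6b* at −0.23 (adjusted p = 0.231) and *Kdm6a* at −0.17 (adjusted p = 0.484). Among 8 readers of methylated CpG, 1 was called lower, 0 higher (median −0.19; −0.010 after cyclic loess). *Zbtb38*, a zinc finger protein that binds methylated DNA, fell from 756 ± 78.1 CPM (SD, n = 3) to 506 ± 51.7 CPM (SD, n = 4), a log2 fold change of −0.58 (SE 0.12, edgeR adjusted p = 0.00276; 0.0412 after cyclic loess). *Zbtb4* (0.46, adjusted p = 0.158), *Mbd1* (−0.19, adjusted p = 0.297) and *Mbd2* (−0.36, adjusted p = 0.330) were not called.

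Genes that these marks commonly keep silent were mostly low in the count table. Of 22 developmental regulators silenced by Polycomb in most tissues, 19 did not pass the filter, and 2 of the 3 tested were called higher, *Gata2* from 7, 2 and 1 counts in the controls to 32, 21, 45 and 6 (edgeR adjusted p = 0.00316) and *Gata6* from 5, 5 and 2 to 7, 27, 14 and 17 (edgeR adjusted p = 0.00747), whereas *Wt1* was not (adjusted p = 0.0222). Of 19 germline genes silenced by DNA methylation, 11 were tested, 0 were called lower and 2 higher, *Sycp1* from 4, 3 and 7 counts to 26, 20, 21 and 12 (edgeR adjusted p = 0.00351) and *Dpep3* from 3, 5 and 2 to 11, 22, 14 and 8 (edgeR adjusted p = 0.00456). *Brdt* (log2 fold change 1.36, adjusted p = 0.0110) and *Hormad1* (1.58, adjusted p = 0.0147) did not pass. *Tdrkh*, named after its values were seen, was the exception in level, at 89.2 ± 6.89 CPM (SD, n = 3) and 68.4 ± 8.47 CPM (SD, n = 4), with a log2 fold change of −0.38 (edgeR adjusted p = 0.0378). After cyclic loess normalization none of either list was called. The median log2 fold change of all genes with an average log2 CPM under 2 was 1.17, and genes this low can pass the filter through the group in which they are higher alone, so nothing is read from these counts.

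**Figure D5:**
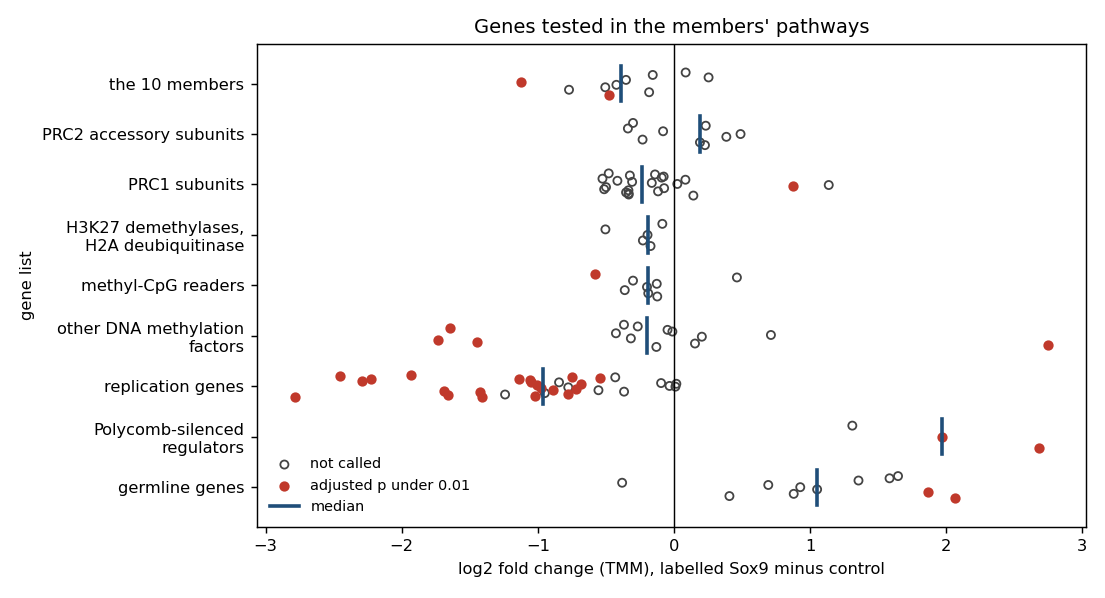
Log2 fold change (x axis, TMM, libraries labelled Sox9 minus control) of each tested gene, by list (y axis); filled red points passed an adjusted p of 0.01, open points did not, and the blue bar is the median. The replication genes have the most filled points (21 of 32), *Uhrf1* and *Ezh2* are the filled points of the 10 members, and PRC2 accessory subunits have none.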

How the data were processed

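The authors demultiplexed reads with bcl2fastq 2.17.1.14, merged lanes, removed adapters (cutadapt) and mapped to mm10 (GRCm38) with STAR 2.5.2b; the versions are from the submitters' processing notes. They deposited raw counts per Ensembl gene and FPKM values; the counting program and its use of strand and introns are not given in the sources used here. Poly-dT primed cDNA was amplified by PCR, and whether molecular identifiers were used is not given in the sources used here.

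The 7 libraries were grouped by their titles and compared with edgeR 4.0.16 (R 4.3.3; TMM, filterByExpr, quasi-likelihood test, two-sided, no covariate, Benjamini-Hochberg over 16522 genes, threshold 0.01). Standard errors of log2 fold changes were derived from the F statistic. P-values measure the spread between these libraries. For the fit relative to replication genes, libraries were scaled to the mean log2 count of 32 genes. Ratios had 0.5 added to each count and were compared by exact permutation (scipy 1.17.1). Symbols, loci (mm10) and exonic lengths came from GENCODE vM21, which held 36345 of the 38124 genes, and promoters from RefSeq. Alternatives were DESeq2 1.42.0, its size factors, cyclic loess with limma-trend (limma 3.58.1), protein-coding genes only, no filter on low counts, a minimum of 10 counts per library, a replicate block, leaving out each library and, chosen after seeing the data, library totals. Counts of alternatives kept cover 16 settings.

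The members and the lists were chosen with earlier results of these data known. Named genes were the members, *Sox9*, the 4 genes of each list with the smallest p-value, and the 3 protein-coding genes most alike to each member called; *Gm26625*, *Gm26563* and *E230029C05Rik* overlap members, and *Aire* overlaps *Dnmt3l*. *Col4a1*, *Tdrkh*, *Pola1*, *Pole*, *Pola2* and *Pold1* were named after their values were seen. The scripts were tested on simulated data. No column of the tables was left out.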

Additional observations from a re-analysis of the deposited data

How the results depend on the processing

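The number of members called lower was 2, and 4 with DESeq2 and without a filter on low counts (*Eed* and *Dnmt1* in addition to *Uhrf1* and *Ezh2*). It was 1, *Uhrf1*, with cyclic loess normalization, library totals, at least 10 counts in every library, protein-coding genes only, the replicate block by titles or by descriptions, and without any 1 library (1 to 1 over 7 fits). No member was called higher in any of these fits. *Ezh2* had a log2 fold change of −0.57 to −0.25 over its 16 alternatives (adjusted p 0.000641 to 0.211), and *Uhrf1* one of −1.27 to −0.89 (highest adjusted p 0.00882). The sign turned for *Ezh1* (cyclic loess 0.032, library totals 0.048), *Dnmt3b* (cyclic loess −0.29), *Tet1* (cyclic loess 0.048, library totals 0.077) and *Tet3* (no filter −0.00031, replicate block by titles −0.014). It also turned for *Uhrf1* relative to the replication genes (0.031 without control 2, 0.079 without Sox9 2). That value ranged from −0.087 to 0.079 over the libraries left out and was −0.14 with the median of the replication genes. The ratio of *Dnmt3a* to *Dnmt1* turned as well (−0.028 without Sox9 1). None of these fold changes passed the threshold, and the ratio was not tested with a library left out. With a library left out, the log2 fold change of *Ezh1* was −0.25 to −0.038 (without control 2), of *Dnmt3b* 0.12 (without Sox9 1) to 0.43 (without Sox9 2), of *Tet1* −0.21 to −0.076 (without Sox9 4) and of *Tet3* 0.011 (without Sox9 3) to 0.17 (without Sox9 1). The ratio of *Ezh1* to *Ezh2* ranged from 0.19 to 0.42 over the libraries left out. The number called higher relative to the replication genes was 7, and 4 to 7 when a library was left out, with 4 without control 4. Of the 72 other pathway genes, 6 were called higher, and 1 with cyclic loess normalization, 2 with at least 10 counts in every library, 1 and 2 with the replicate block by titles and descriptions, and 0 to 5 without a library (0 without control 2, 2 without control 1 or control 4, 3 without Sox9 3). The cause of these differences was not tested. Replicate numbers were not shown to pair the libraries: deviations of same-numbered libraries correlated at −0.036 to 0.12, 1 of 3 pairs over 0.1, and 1 of 3 controls correlated best with its own number. Titles and descriptions number control 4 differently. With the block, *Ezh2* had an adjusted p of 0.0367 (titles) and 0.0357 (descriptions), and *Uhrf1* 0.00882 and 0.0066, and the replication genes called lower went from 21 to 13 by titles. *Dnmt3b* rests on 23 to 40 counts per library, the fewest of the members.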

Other observations

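The genes most alike to the 2 members called were sought among 14266 protein-coding genes, by the root mean square difference of centred log2 CPM over the 7 libraries. For *Uhrf1* these were *Cryz* (0.108 on the log2 scale; log2 fold change −1.13, SE 0.25), *Fstl1* (0.150; −1.08, SE 0.14) and *Rrm1* (0.156; −1.05, SE 0.14), the large subunit of ribonucleotide reductase and 1 of the 32 replication genes. For *Ezh2* they were *Hibch* (0.0395; −0.54, SE 0.16), a mitochondrial enzyme of valine breakdown, *Mrpl35* (0.0635; −0.53, SE 0.12), a mitochondrial ribosomal protein, and *Diablo* (0.0637; −0.42, SE 0.12), a mitochondrial protein released in apoptosis. The points are 7 libraries in 2 groups that also differed in depth and in their sums of marker genes, and the measure is given as a description only.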
